A study of Saccharomyces cerevisiae with 21 samples.

Results

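Saccharomyces cerevisiae mRNA was compared after depletion of Sth1, of Rap1, and of both, and the genes described here are those whose response to the joint depletion was not the sum of the responses to the 2 depletions made alone. The quantities that entered were the STH1 effect in STH1-AID cells, the RAP1 effect in RAP1-AID cells and the joint effect in STH1-AID RAP1-AID cells, each the log2 fold change of IAA against DMSO. The quantity reported is the joint effect minus the sum of the STH1 effect and the RAP1 effect. A value of 0 means that the fold changes of the single depletions multiply. Of 6254 genes tested, 473 (7.56%) were called, with an adjusted p under 0.05 and a value beyond 1 in size on the log2 scale. In 193 genes (3.09%) the joint effect lay above the sum, and in 280 (4.48%) it lay below. These are termed genes above the sum and genes below the sum.

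The 21 libraries form 7 groups of 3 biological replicates. All strains are labelled as MATa derivatives of BY4741 that carry his3D1, leu2D0, met15D0 and ura3D0 and a 3xFLAG tag on Rpb3. The degron strains also carry osTIR under the GPD1 promoter at LEU2. This plant receptor recruits a ubiquitin ligase to degron-tagged proteins when auxin (3-indole-acetic acid, IAA) is added, which leads to their degradation. STH1-AID carries the 3V5-IAA7 degron on Sth1, RAP1-AID carries it on Rap1, and STH1-AID RAP1-AID carries it on both. Each was treated with IAA (500 uM) or with its solvent DMSO. The wild type (WT) has neither osTIR nor a degron and was left untreated. Cells grew in rich medium, and Schizosaccharomyces pombe cells were added as a spike-in before RNA extraction. Each degron genotype is represented by 1 strain, no untagged strain with IAA was analysed here, and the extent of protein depletion was not measured here. A difference in how far Sth1 or Rap1 was depleted in the strain with both degrons and in the strains with 1 degron cannot be told apart from a difference in response.

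RSC is an essential chromatin remodeller that uses ATP to slide and evict nucleosomes and keeps gene promoters open. Sth1 is its ATPase. Rap1 is a general regulatory factor, an abundant DNA-binding protein that sits at the promoters of most ribosomal protein genes and many glycolytic genes and at telomere repeats. RSC and Rap1 both act on nucleosome-free promoter regions, so a joint depletion asks whether a promoter responds to the loss of each independently of the other.

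Libraries held 20901972 to 29090954 counts in S. cerevisiae genes and 1144357 to 3486097 in S. pombe genes. Levels are given as CPM, counts divided by library size, after TMM scaling, which sets libraries on a scale where most genes do not differ. At this depth 3 counts correspond to 0.0868 to 0.193 CPM. Replicates of STH1-AID RAP1-AID were less alike than those of the single strains. For each library, the median absolute deviation from the mean of the other replicates of its group was taken over the 5140 genes with higher levels. It was 0.106 to 0.166 on the log2 scale in these 6 libraries, and 0.0354 to 0.0883 in the libraries of the other degron strains. The MATa genes MFA1, MFA2, STE2, BAR1, AGA2 and STE6 were present in every library, and the alpha-factor genes MF(ALPHA)1 and MF(ALPHA)2 did not exceed 2.26 and 1.13 CPM. STE3 reached 19.1 CPM. SAG1, which was set as a marker to be absent, stood at 51.8 to 265 CPM. MET17, also known as MET15, was near 0 only in STH1-AID (at most 0.758 CPM), whereas it stood at 78.4 to 358 CPM in all the other libraries although every strain is labelled met15D0. STH1-AID thus differed from the other strains at a gene that carries no degron. Its part in the differences between the strains cannot be told apart from that of the degrons. STH1 mRNA was higher with IAA in both strains with a tagged Sth1 (STH1 effect 1.01, joint effect 0.81), and its joint effect differed from the sum by -0.11 (adjusted p = 0.507, edgeR quasi-likelihood test). RAP1 mRNA had a STH1 effect of 0.43, a RAP1 effect of 0.44 and a joint effect of 0.30. The degron removes protein, so these transcripts do not check the depletion.

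The following stretches of DNA show the kinds of gene on which the results turn, each being the 250 bases that end 51 bases before the start codon, on the gene's own strand in the RefSeq R64 genome. They were chosen by hand after their values and motif matches were seen. HSP12 (chrVI:106956-107205, plus strand) stands for the stress genes below the sum. ADK1 (chrIV:916186-916435, plus strand) and ILM1 (chrX:644152-644401, minus strand) stand for genes with a large fall in STH1-AID. RPL8A (chrVIII:36076-36325, minus strand) is a ribosomal protein gene above the sum. NAT3 (chrXVI:794549-794798, minus strand) lies head-to-head with the ribosomal protein gene RPS23B and was below the sum. Capitals mark the stress element AGGGG, bound by Msn2 and Msn4, in HSP12, where it reads CCCCT on the strand shown, and the core CGCGC of sites described for the RSC subunit Rsc3 in ADK1 and ILM1, where it reads GCGCG. They also mark in RPL8A and NAT3 the core of a Rap1 site, read on the other strand in NAT3. Each motif was searched on both strands.
HSP12: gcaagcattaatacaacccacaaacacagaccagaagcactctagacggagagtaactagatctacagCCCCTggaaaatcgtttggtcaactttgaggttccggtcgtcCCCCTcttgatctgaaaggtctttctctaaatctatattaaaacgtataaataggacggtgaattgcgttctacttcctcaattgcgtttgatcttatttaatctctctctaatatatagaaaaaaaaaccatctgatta
ADK1: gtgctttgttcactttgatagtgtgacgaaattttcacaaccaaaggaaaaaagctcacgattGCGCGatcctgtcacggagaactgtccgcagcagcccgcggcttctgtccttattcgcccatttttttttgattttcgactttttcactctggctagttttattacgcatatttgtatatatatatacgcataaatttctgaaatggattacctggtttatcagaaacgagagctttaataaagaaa
ILM1: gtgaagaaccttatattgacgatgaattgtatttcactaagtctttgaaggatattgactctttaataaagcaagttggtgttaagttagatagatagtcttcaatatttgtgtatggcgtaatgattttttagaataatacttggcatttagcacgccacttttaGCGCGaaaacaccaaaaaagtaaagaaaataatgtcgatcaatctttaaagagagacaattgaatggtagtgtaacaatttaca
RPL8A: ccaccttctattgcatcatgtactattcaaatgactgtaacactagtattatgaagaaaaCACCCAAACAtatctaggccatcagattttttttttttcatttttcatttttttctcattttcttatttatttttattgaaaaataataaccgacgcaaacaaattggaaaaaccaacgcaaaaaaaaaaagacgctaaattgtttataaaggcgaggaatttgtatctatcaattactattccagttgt
NAT3: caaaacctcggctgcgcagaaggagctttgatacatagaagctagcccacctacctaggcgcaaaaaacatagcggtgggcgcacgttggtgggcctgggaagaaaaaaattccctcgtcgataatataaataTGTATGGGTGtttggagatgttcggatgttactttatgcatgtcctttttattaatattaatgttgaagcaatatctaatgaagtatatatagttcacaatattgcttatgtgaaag

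The joint effect was most often smaller than the sum. Among the 473 genes called, it was smaller in size than the sum in 424, larger in 24 and of the opposite sign in 25, where opposite sign was given only if both values exceeded 0.5 in size. It lay between 0 and the sum in 164 of the 193 genes above the sum and in 203 of the 280 genes below it. Of the STH1 effect, the RAP1 effect and their sum, the joint effect was nearest to the RAP1 effect in 374 genes, to the STH1 effect in 75 and to the sum in 24. The genes were chosen for a joint effect more than 1 away from the sum, so the count for the sum is low by that choice. The RAP1 effect was within 0.5 of 0 in 155 genes above and 181 below the sum. In these genes, nearest to the RAP1 effect means little more than nearest to 0. Leaving out each of the 18 degron libraries in turn, 293 of the 473 genes were called every time (137 above and 156 below the sum), 47 were called in fewer than 9 of these fits, and none was called in the opposite direction. The counts ranged from 177 to 296 above the sum and from 180 to 331 below it. Without STH1_IAA replicate 3 there were 296 genes above the sum, and without STH1_IAA replicate 2 there were 180 below it.

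**Figure D1:**
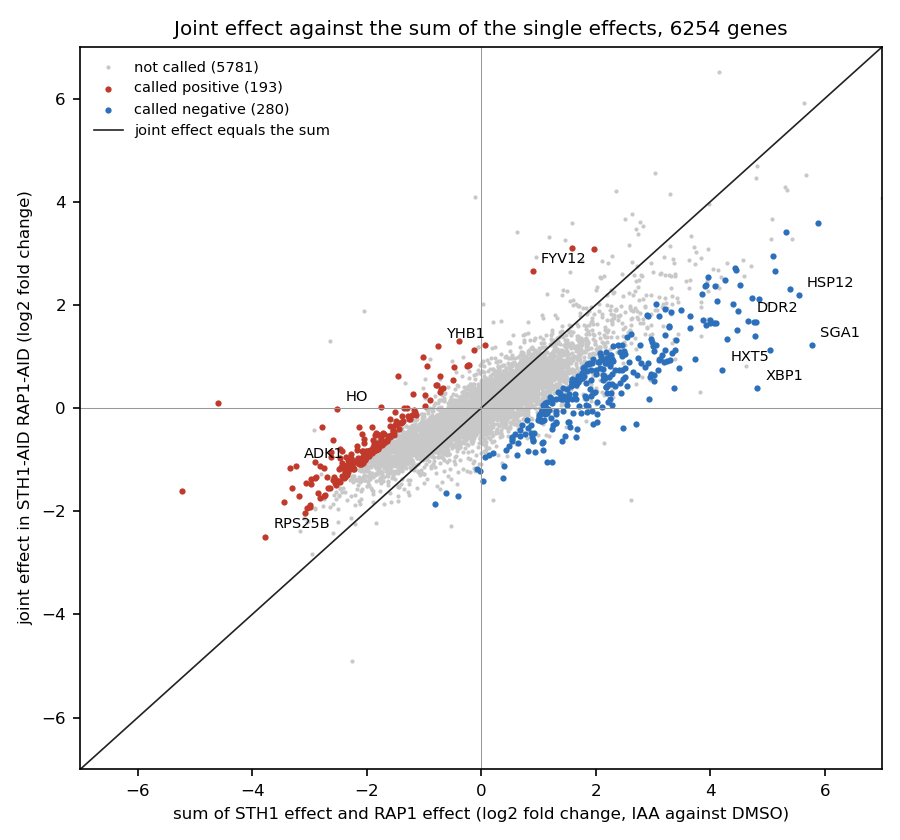
Joint effect (vertical axis) against the sum of the STH1 effect and the RAP1 effect (horizontal axis), both as log2 fold changes of IAA against DMSO, for 6254 genes under TMM scaling. The 193 genes above the sum (red) lie mainly where the sum is negative and the 280 below it (blue) mainly where it is positive, and 164 and 203 of them lie between the diagonal and the horizontal line at 0. The plotted range leaves out 2 genes.

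Genes above the sum were mainly genes that fell in STH1-AID. The STH1 effect was called lower in 149 of the 193, against 15.4% of all genes, and the RAP1 effect was called lower in 22, against 3.07%. Their medians were -1.85 for the STH1 effect, -0.04 for the RAP1 effect, -2.03 for the sum and -0.83 for the joint effect. Genes below the sum had the mirror pattern, with the STH1 effect called higher in 216 of the 280 (15.4% of all genes) and the RAP1 effect called higher in 23 (0.991%). Their medians were 1.63 for the STH1 effect, 0.30 for the RAP1 effect, 2.03 for the sum and 0.53 for the joint effect. Both single effects are subtracted in the value that chose these genes, so error in them pushes it the other way and these shares are a description. The joint effect was closer to 0 than the STH1 effect in 164 genes above the sum and in 255 below it.

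The same was seen in genes picked by their single effects alone, a choice made after the data were seen. In 127 genes with a called STH1 effect below -2 and a RAP1 effect within 0.5 of 0, the median STH1 effect was -2.26 and the median joint effect was -1.17, and the joint effect was closer to 0 in 125. In 170 genes with a called STH1 effect above 2 and a RAP1 effect within the same bounds the medians were 2.43 and 1.59, and 156 were closer to 0. Among 41 genes with a called RAP1 effect below -2 and a STH1 effect within 0.5 of 0, the median RAP1 effect was -2.34, the median joint effect was -1.64, and 40 were closer to 0. A gene picked for an extreme single effect tends to lie nearer to 0 in any other measurement, so these medians are descriptions. Of 57 genes with both single effects called, 33 had effects of the same direction. In the 31 of these that were higher in both, the median STH1 effect was 2.05, the median RAP1 effect 1.64 and the median joint effect 2.04. Of the 31, 18 were called below the sum, against 4.48% of all genes. They were picked for high single effects, which the value subtracts, so this count is a description as well.

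The largest values above the sum belonged to genes with a strong fall in STH1-AID that was absent or weaker in the strain with both degrons. ADK1 (chromosome IV, 916486 to 917154) encodes adenylate kinase, which interconverts adenine nucleotides. In STH1-AID, ADK1 stood at 599, 557 and 585 CPM with DMSO and at 73.3, 68.6 and 78.5 CPM with IAA. RAP1-AID gave 458, 468 and 473 CPM with DMSO and 368, 397 and 407 CPM with IAA. The strain with both degrons gave 448, 405 and 455 CPM with DMSO and 182, 186 and 232 CPM with IAA. The 3 IAA libraries of the strain with both degrons lay below all its DMSO libraries and above all IAA libraries of STH1-AID, without overlap. The STH1 effect was -2.98, the RAP1 effect -0.25 and the joint effect -1.12, so that the joint effect exceeded the sum by 2.11 (SE 0.14, adjusted p = 1.35e-08, edgeR quasi-likelihood test). With spike-in scaling the value was 2.65.

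HO, the endonuclease gene of mating type switching (chromosome IV, 46271 to 48031), fell in STH1-AID and not in the strain with both degrons. The levels of HO were 123, 115 and 107 CPM (DMSO) and 26.4, 24.9 and 22.4 CPM (IAA) in STH1-AID. They were 72.7, 72.9 and 71.2 and 58.9, 57.4 and 62.2 CPM in RAP1-AID, and 61.5, 78.9 and 71.8 and 61.5, 65.8 and 81.1 CPM in the strain with both degrons. In the last strain the IAA and DMSO libraries overlapped. The joint effect of -0.03 exceeded the sum of -2.23 and -0.28 by 2.49 (SE 0.17, adjusted p = 1.38e-08, edgeR). Its level with DMSO was lower in both strains with a tagged Rap1 than in STH1-AID, without overlap.

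RKI1, ribose-5-phosphate isomerase of the pentose phosphate pathway, exceeded the sum by 2.17 (STH1 effect -3.00, RAP1 effect -0.34, joint effect -1.17). CAT5, an enzyme of ubiquinone synthesis, gave 1.98, and its joint effect was -0.62 against a STH1 effect of -2.93. ILM1, whose upstream stretch is shown above, gave 1.85 (joint effect -1.04, STH1 effect -3.13), and the glucose-6-phosphate epimerase gene YMR099C gave 1.76 (joint effect -0.85, STH1 effect -2.75). In these 4 genes the RAP1 effect lay between -0.34 and 0.33. COS1, a subtelomeric gene on chromosome XIV, exceeded the sum by 2.41, but its level with DMSO was 2.46 to 3.84 CPM in STH1-AID and 44.9 to 55.1 CPM in the strains with a tagged Rap1. It belongs to a family of near-identical copies and only uniquely mapped fragments were counted, so its value is uncertain.

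In HAP3, SWM1, YHB1 and GIM3 the joint effect was positive, as was the RAP1 effect, while the STH1 effect was negative. HAP3 encodes a subunit of the Hap activator of respiratory genes. For HAP3, DMSO and IAA libraries held 14, 13.4 and 13.2 and then 2.38, 2.67 and 3.55 CPM in STH1-AID. The same order gave 10.5, 11.1 and 11.1 and 18.7, 17.6 and 19 CPM in RAP1-AID. With both degrons the values were 9.65, 10.6 and 11.4 and 15, 14.7 and 19.2 CPM. The IAA libraries of the strain with both degrons lay above its DMSO libraries, as in RAP1-AID, while those of STH1-AID lay below theirs. The joint effect was 0.63, the STH1 effect -2.22 and the RAP1 effect 0.76, a difference from the sum of 2.09 (SE 0.23, adjusted p = 2.24e-06, edgeR). SWM1, a subunit of the anaphase-promoting complex, had a joint effect of 0.99 and a STH1 effect of -1.93. YHB1, the flavohaemoglobin that detoxifies nitric oxide, had 1.2 and -1.78, and GIM3, a prefoldin subunit, had 0.81 and -1.28. YHB1 varied between the IAA replicates of the strain with both degrons, from 391 to 849 CPM, and between its DMSO replicates, from 168 to 398 CPM.

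ADE17, an enzyme of purine synthesis, was the exception among the 12, since it fell in RAP1-AID (-2.71) and not in STH1-AID (0.57). Its joint effect was -0.36 and exceeded the sum by 1.77 (SE 0.56, adjusted p = 0.0205, edgeR). The strain with both degrons had lower ADE17 already with DMSO (184 to 357 CPM, against 494 to 593 CPM in RAP1-AID). Without RAP1_STH1_IAA replicate 1 the value was 1.13, and with WT as the common base for all IAA groups it was 0.07.

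**Figure D2:**
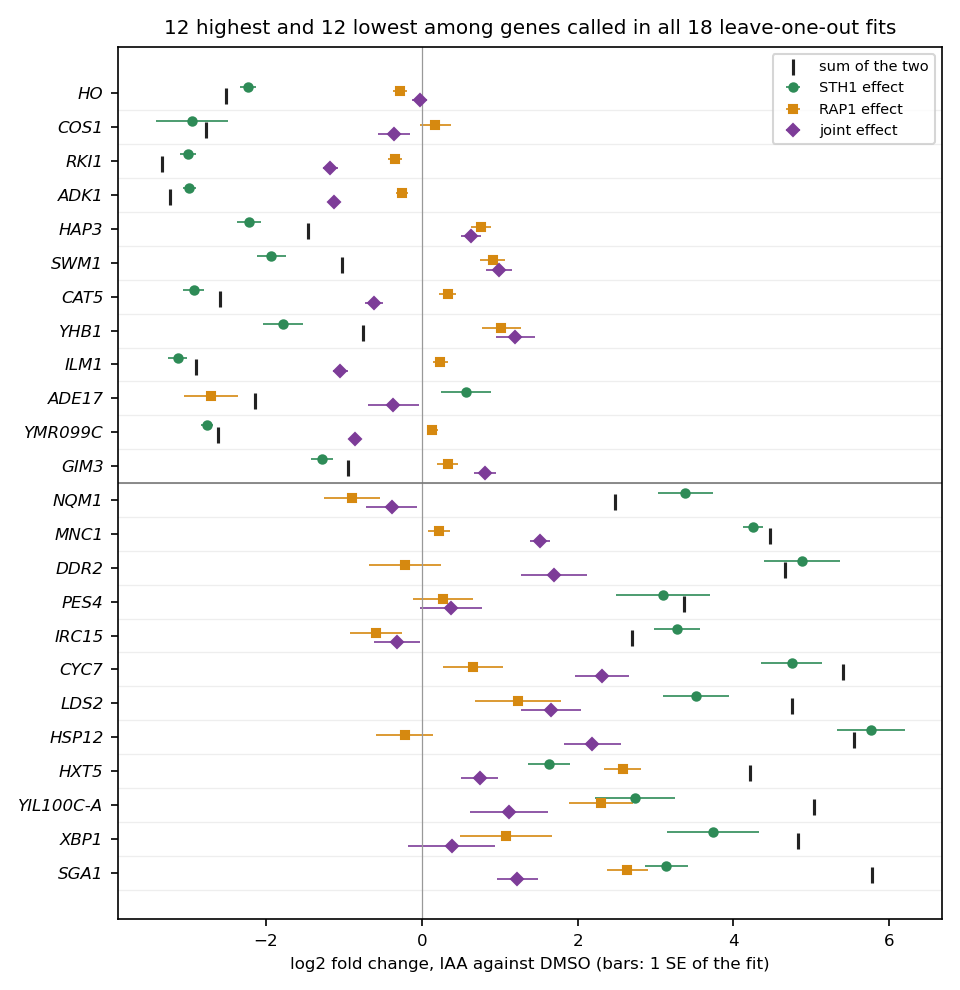
STH1 effect (green circles), RAP1 effect (orange squares), joint effect (purple diamonds) and the sum of the single effects (black bars) of 24 genes, as log2 fold changes of IAA against DMSO with bars of 1 SE. They are the 12 highest and 12 lowest of the genes called without each of 18 libraries in turn, after leaving out genes with 3 counts or fewer in every library of a degron group (PHM6, at 3.62, is one) and same-strand overlaps, and in each the joint effect lies to the right (upper 12) or to the left (lower 12) of the sum.

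Genes of the general stress response were prominent among the most negative values. HSP12 (chromosome VI, 107256 to 107585) encodes a small membrane-stabilising protein and is a standard target of the stress activators Msn2 and Msn4. In STH1-AID, HSP12 stood at 23, 19.7 and 13.8 CPM with DMSO and at 893, 1363 and 801 CPM with IAA. RAP1-AID gave 32.2, 30.7 and 25.7 CPM with DMSO and 25.6, 26.5 and 24 CPM with IAA. The strain with both degrons gave 37.2, 27.4 and 58.3 CPM with DMSO and 176, 162 and 221 CPM with IAA. The IAA libraries of the strain with both degrons were above all its DMSO libraries and below all IAA libraries of STH1-AID. The STH1 effect was 5.76, the RAP1 effect -0.22 and the joint effect 2.19, so that the joint effect fell short of the sum by a difference of -3.35 (SE 0.64, adjusted p = 4.99e-04, edgeR). Its upstream stretch holds CCCCT, the stress element read on the other strand, 232 and 190 bases before the start codon.

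Of 39 listed genes of the Msn2 and Msn4 type, 21 were called below the sum and 0 above it, against 4.48% of all genes, and 12 of them were called whichever library was left out. The median of the list was -1.43, against 0.01 for all genes. With spike-in scaling the median was -0.84, against 0.54 for all genes. There 4 members were called below the sum, against 0.176% of all genes. With the same scaling and without RAP1_STH1_DMSO replicate 1, 13 members were called below the sum and 1 above. Among all 6254 genes there were 47 below and 1367 above in that setting, which was chosen after seeing the data. With TMM and without STH1_IAA replicate 2 there were 12 calls below. With WT as the common base for all IAA groups the list median was -0.90, against 0.01 for all genes. On that base 16 members were called below, against 387 of all 6254 genes. The STH1 effect was called higher in 32 members and the joint effect in 18, against 15.4% and 8.65% of all genes, and the joint effect was below the STH1 effect in 34. DDR2, a small stress-induced protein, was at -2.97 (joint effect 1.70, STH1 effect 4.88), and NQM1, a transaldolase, was at -2.87 with a joint effect of -0.38 and a STH1 effect of 3.38. GAD1, glutamate decarboxylase, was at -2.29, TFS1, an inhibitor of carboxypeptidase Y, at -1.90, and PNC1, the nicotinamidase that feeds NAD salvage, at -1.43.

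Chaperones of the heat shock response followed the same direction, with 8 of 24 below the sum (4.48% of all genes), 0 above it and a median of -0.81 (-0.22 with spike-in scaling). SSA4, an inducible Hsp70, had the most negative value of the list. The levels of SSA4 were 91.3, 117 and 78.8 CPM (DMSO) and 574, 702 and 553 CPM (IAA) in STH1-AID. They were 48.4, 47.7 and 45.6 and 61.3, 61.3 and 58.2 CPM in RAP1-AID, and 55.3, 67.6 and 63.2 and 91.3, 103 and 94.8 CPM in the strain with both degrons. The IAA libraries of the strain with both degrons all lay above its DMSO libraries but within reach of the DMSO libraries of STH1-AID, which they overlapped. The joint effect of 0.64 differed by -2.39 from the sum of 2.67 and 0.35 (SE 0.26, adjusted p = 1.57e-06, edgeR). With spike-in scaling the value was -1.89 and SSA4 was not called. HSP104, a disaggregase, had a joint effect of 0.03 and a STH1 effect of 1.89, and differed from the sum by -1.83. AHA1 (-1.55) and CPR6 (-1.27), co-chaperones of Hsp90, had joint effects of -0.65 and -0.51. HSP42, BTN2 and HSP26 were called with all libraries but in only 9, 6 and 2 of the 18 fits with a library left out. SSA4, HSP104, HSP42, HSP26 and SSA3 stand in the stress list as well.

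SGA1, the sporulation-specific glucoamylase (chromosome IX, 178004 to 179653), had the most negative value. For SGA1, DMSO and IAA libraries held 2.11, 1.83 and 2.05 and then 16.8, 21.4 and 15 CPM in STH1-AID. The same order gave 2.56, 2.12 and 1.68 and 12.8, 13 and 13.9 CPM in RAP1-AID. With both degrons the values were 2.11, 2.94 and 3.31 and 6.77, 7.15 and 5.6 CPM. Thus SGA1 was higher with IAA in every strain without overlap, and least so with both degrons. The joint effect was 1.22, against 3.14 in STH1-AID and 2.64 in RAP1-AID, a difference from the sum of -4.55 (SE 0.46, adjusted p = 8.22e-07, edgeR). Beside it lie XBP1 (-4.44), a stress-induced repressor read from the other strand, and the small reading frame YIL100C-A (-3.92), which had at most 1.96 CPM in any library. XBP1 varied between replicates, from 2.93 to 13.5 CPM with IAA in the strain with both degrons and from 28.8 to 69.9 CPM in STH1-AID with IAA. HXT5, a hexose transporter of slow growth, was at -3.47 and had the larger of its single effects in RAP1-AID (2.58, against 1.63 in STH1-AID, with a joint effect of 0.74).

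Meiosis and sporulation genes included 14 of 68 below the sum (4.48% of all genes), 0 above it and a median of -0.73 (-0.20 with spike-in scaling). LDS2 was at -3.09, PES4 at -2.99, SPS100, a spore wall protein, at -2.43, and NDT80, the activator of middle meiotic genes, at -1.43. LDS2 and PES4 did not exceed 3.97 and 1.82 CPM, and neither was called with spike-in scaling. Trehalose and glycogen genes gave 4 of 21 below the sum, against the same share of all genes, and a median of -0.63 (-0.09 with spike-in scaling), among them GSY1, glycogen synthase, at -2.45. CYC7, the hypoxic cytochrome c, was at -3.09, IRC15, a microtubule-associated protein, at -3.01, and MNC1 at -2.95. With WT as the common base for all IAA groups these 3 values were -2.82, -1.67 and -3.64. All 33 members of the proteasome list had values below 0, with a median of -0.61 (-0.07 with spike-in scaling). The only call among them was RPN4 (-1.01), the activator of proteasome genes and not a subunit, in 11 of 18 fits with a library left out.

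**Figure D3:**
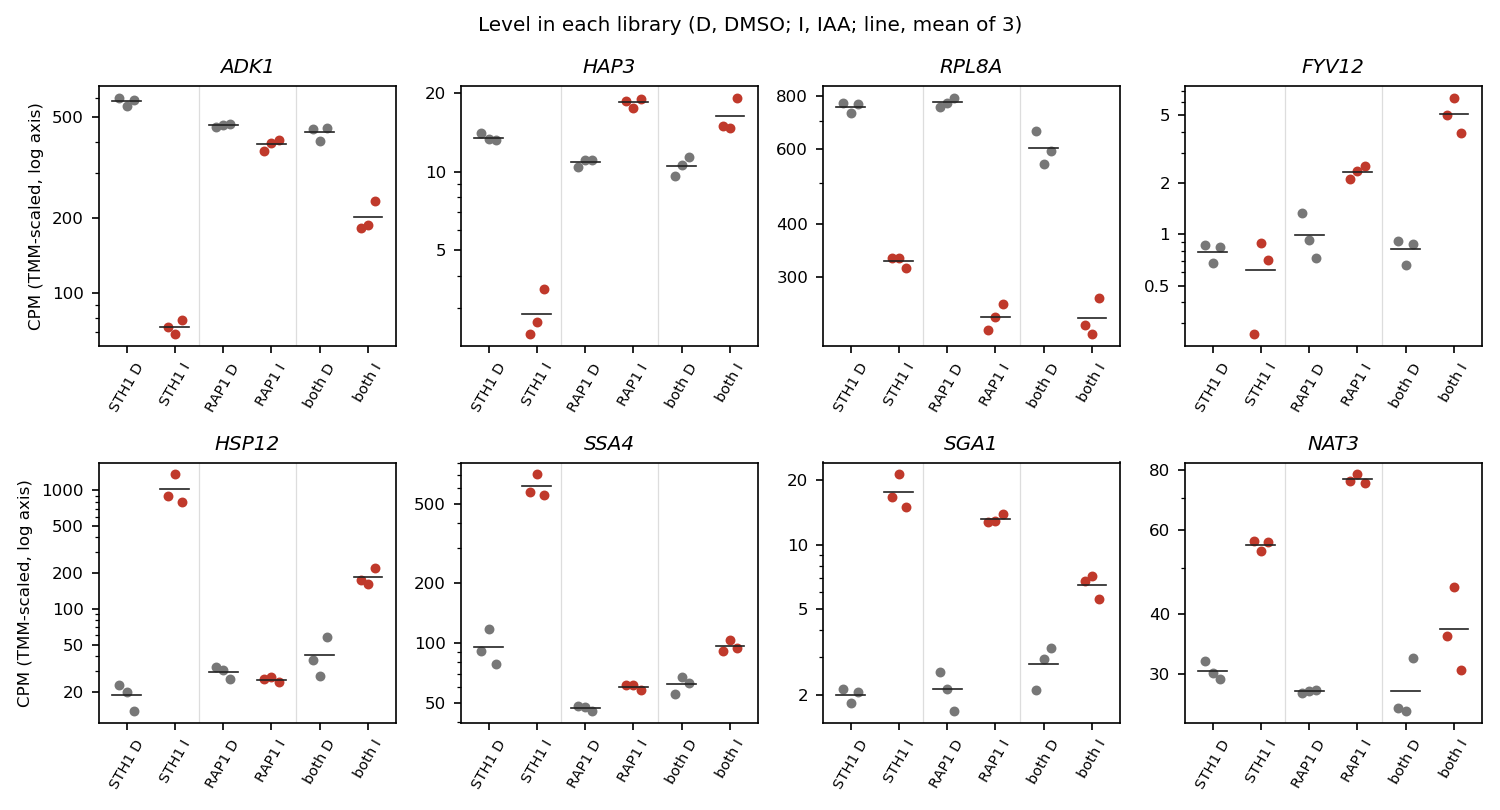
TMM-scaled CPM on a log axis in each of the 18 degron libraries for 8 genes (grey, DMSO; red, IAA; line, mean of 3). HAP3 falls in STH1-AID only, ADK1 falls furthest there, HSP12 and SSA4 are far higher with IAA in STH1-AID than in the strain with both degrons, the IAA values of RPL8A in RAP1-AID and with both degrons overlap, FYV12 is highest with both degrons, and SGA1 and NAT3 are higher with IAA in each single strain than with both degrons.

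Ribosomal protein genes, the best known targets of Rap1, fell less in the strain with both degrons than the sum. Of 137 cytoplasmic ribosomal protein genes, 18 were above the sum and 0 below it, against 3.09% and 4.48% of all genes, and 131 had values above 0. The list medians were -0.10 for the STH1 effect, -1.58 for the RAP1 effect, -1.08 for the joint effect and 0.68 for the difference. With spike-in scaling the median difference was 1.19, against 0.54 for all genes. There 1 gene was called above the sum, against 0.624% of all genes. The same scaling without RAP1_STH1_DMSO replicate 1 called 112 above the sum, against 1367 of all 6254 genes. The median was then 1.58, against 0.87 for all genes, and this setting was chosen after seeing the data. The RAP1 effect was called lower in 111 and the joint effect in 80, against 3.07% and 6.57% of all genes. Of the 18 genes, 15 were called without each library in turn, and the count was 31 without STH1_IAA replicate 1 (22 with the TMM factors of the full data kept). Without RAP1_STH1_IAA replicate 3 it was 19 (11 with those factors kept).

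RPL8A, a protein of the large subunit, had the highest value in this list. The levels of RPL8A were 770, 731 and 766 CPM (DMSO) and 334, 333 and 316 CPM (IAA) in STH1-AID. They were 757, 772 and 794 and 225, 243 and 259 CPM in RAP1-AID, and 664, 554 and 595 and 231, 220 and 269 CPM in the strain with both degrons. All 3 strains fell with IAA without overlap, and the IAA libraries of RAP1-AID and of the strain with both degrons overlapped. The single effects of -1.21 and -1.68 add up to more than the joint effect of -1.33, a difference of 1.55 (SE 0.13, adjusted p = 1.09e-07, edgeR). RPL16A (1.35), RPS25B (1.27), RPL2B (1.24), RPL29 (1.21) and RPL37A (1.18) differed from RPL8A in that their STH1 effects were small, from -0.38 to 0.00. Their RAP1 effects lay between -3.41 and -2.24 and their joint effects between -2.5 and -1.13. RPS25B, for example, fell from 197, 209 and 205 CPM to 19, 19.9 and 18.5 CPM in RAP1-AID, and from 181, 192 and 169 CPM to 27.4, 32 and 36.4 CPM with both degrons. RPS28B stood apart, being higher with IAA in the strain with both degrons (joint effect 0.79) and not in either single strain (-0.36 and -0.12). Fragments across exon junctions were not counted, and 10 of the 18 genes have an intron. Many of these genes have a near-identical paralogue, and only uniquely mapped fragments were counted, so that their values are uncertain.

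Genes whose start faces that of a ribosomal protein gene were called mainly below the sum. Of 65 such genes, 12 were below the sum and 3 above it, against 4.48% and 3.09% of all genes, and 12 of these 15 were called without each library in turn. The list median was -0.03. NAT3, a catalytic subunit of an N-terminal acetyltransferase, is separated from RPS23B by their shared promoter region on chromosome XVI. In STH1-AID, NAT3 stood at 32, 30.2 and 29.3 CPM with DMSO and at 56.8, 54.1 and 56.6 CPM with IAA. RAP1-AID gave 27.4, 27.7 and 27.9 CPM with DMSO and 75.8, 78.3 and 75.3 CPM with IAA. The strain with both degrons gave 25.6, 25.2 and 32.5 CPM with DMSO and 36, 45.5 and 30.6 CPM with IAA. It was higher with IAA in each single strain without overlap, whereas with both degrons 1 IAA library overlapped the DMSO libraries. The joint effect of 0.43 differed by -1.91 from the sum of 0.87 and 1.47 (SE 0.19, adjusted p = 7.36e-07, edgeR).

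RXT3, a subunit of the Rpd3 deacetylase complex that faces RPL31A, was at -1.96 (joint effect 0.70, STH1 effect 0.77, RAP1 effect 1.88). UGO1, a mitochondrial fusion protein that faces RPL27B, was at -1.91 (0.29, 1.06 and 1.14 in the same order). YOR292C, which faces RPS10A and was named after its value was seen, was at -1.63, and its joint effect of 2.22 lay between the STH1 effect of 1.21 and the RAP1 effect of 2.64. REH1, a factor of ribosome maturation that faces RPS29A, was lower in the strain with both degrons (-0.56) and higher in STH1-AID (1.53), a difference from the sum of -2.21. Above the sum were RKI1, which faces RPS7A, LCB3, a sphingolipid phosphatase gene that faces RPS21B (1.61) and overlaps YJL135W on the same strand, and FYV12, which faces RPS30B (1.75).

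FYV12 was among the few genes with a joint effect larger than the sum. The levels of FYV12 were 0.865, 0.676 and 0.837 CPM (DMSO) and 0.258, 0.89 and 0.71 CPM (IAA) in STH1-AID. They were 1.33, 0.923 and 0.723 and 2.12, 2.36 and 2.52 CPM in RAP1-AID, and 0.918, 0.66 and 0.872 and 5.07, 6.35 and 3.96 CPM in the strain with both degrons. With both degrons the IAA libraries exceeded every other library. The joint effect was 2.65, the STH1 effect -0.33 and the RAP1 effect 1.23, a difference from the sum of 1.75 (SE 0.51, adjusted p = 0.0122, edgeR). Its highest level was 6.35 CPM. Of the 24 genes with a larger joint effect, named after their values were seen, only 5 had a sum beyond 0.5 in size with the same sign: FYV12, YMR194C-A (joint effect 3.11 against a sum of 1.59), YJR115W (3.08 against 1.96), GUP1 (-1.87 against -0.81) and VTS1 (-1.64 against -0.61). FYV12 and YMR194C-A were called without each library in turn. In other cases the single effects opposed each other. AKR1, a palmitoyltransferase, had a joint effect of -1.12 with single effects of 0.64 and -0.24, and UBC5, a ubiquitin-conjugating enzyme, had -1.71 with -0.80 and 0.40.

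Among the 25 genes with a joint effect opposite to the sum, 20 were below it. DIN7 (-1.90), a nuclease, ATG19 (-2.29), an autophagy receptor, and ORC2 (-1.21), a subunit of the origin recognition complex, were lower in the strain with both degrons (joint effects -0.82, -1.05 and -0.53) while their sums were positive. For ORC2, DMSO and IAA libraries held 77.5, 75.3 and 74.8 and then 101, 92.6 and 97.6 CPM in STH1-AID. The same order gave 54.5, 55.6 and 52.4 and 68.9, 67 and 66.6 CPM in RAP1-AID. With both degrons the values were 54.9, 52.8 and 57.7 and 36.5, 40.1 and 37.6 CPM. ORC2 was higher with IAA in both single strains and lower with IAA in the strain with both degrons, without overlap in any of the 3 strains. The difference from the sum was -1.21 with an SE of 0.09.

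Calls in lists of growth and biosynthesis genes are set against 3.09% above and 4.48% below the sum among all genes. The share called in either direction was 7.56% of all genes and 5.56% in ribosome biogenesis. It was 8.11% in the DNA replication list, 9.09% in histone genes and 10.5% in oxidative phosphorylation, all of these above the sum. Ribosome biogenesis gave 6 above and 1 below of 126, shares near or under those of all genes, with a median of 0.31, and SDA1 (1.17), KRR1 (1.15) and LOC1 (1.12) had STH1 effects of -1.68, -1.91 and -2.24. In the list of DNA replication genes 3 of 37 were above the sum, and DUT1, the dUTPase that keeps uracil out of DNA, led with 1.76. DUT1 had 63.9, 60.1 and 64.6 CPM with DMSO and 6.96, 6.05 and 7.1 CPM with IAA in STH1-AID, and 75.3, 65.4 and 67.4 CPM and then 23.5, 23 and 24.9 CPM with both degrons. POL1, a catalytic subunit of DNA polymerase alpha, was at 1.46. Of 11 histone genes 10 had values above 0 (median 0.63), and HTA1, a gene of histone H2A, was called at 1.22. Oxidative phosphorylation gave 4 of 38, namely ATP19 (1.27), COX5A (1.24), ATP20 (1.24) and COX4 (1.22), and the list median was 0.08. None of these 4 was called with spike-in scaling. With WT as the common base for all IAA groups they were at 0.69, 0.63, 0.89 and 0.21.

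Several other lists held small numbers of calls or none, some of them at shares above those of all genes. None of the 17 genes of RSC subunits, the 19 of silencing and telomere proteins or the 31 translation factors was called by edgeR or DESeq2. Of these, 3, 7 and 19 had an unadjusted edgeR p under 0.05. Among all 6254 genes tested, 1488 with a positive and 1113 with a negative value had such a p. In glycolysis and fermentation, which include many Rap1 targets, 2 of 21 were below the sum, PDC6 (-1.76) and GLK1 (-1.72), the latter in 5 of 18 fits with a library left out. The list of general regulatory factors and regulators of ribosomal protein genes gave HMO1 above (1.07) and CRF1 below (-1.14) among 17, the latter called in 8 of 18 fits with a library left out. Among 56 genes listed as mitochondrial ribosomal protein genes by the form of their names, 2 were above the sum and 1 (MRP8) below. In ergosterol synthesis 1 of 26 was above. The amino acid synthesis list gave 3 above of 31, purine synthesis 2 above of 23, and the cell cycle list 1 above of 28. Mating genes had 2 above and 3 below of 36, the sulphur amino acid pathway 1 above and 3 below of 31, and hexose transporters and sensors 1 above and 2 below of 23. Below the sum alone were 2 of 22 in the TCA and glyoxylate cycle, 2 of 17 anaerobic genes, 3 of 36 cell wall genes and 1 of 23 drug resistance and iron genes. Over all genes the share was 3.09% above and 4.48% below.

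**Figure D4:**
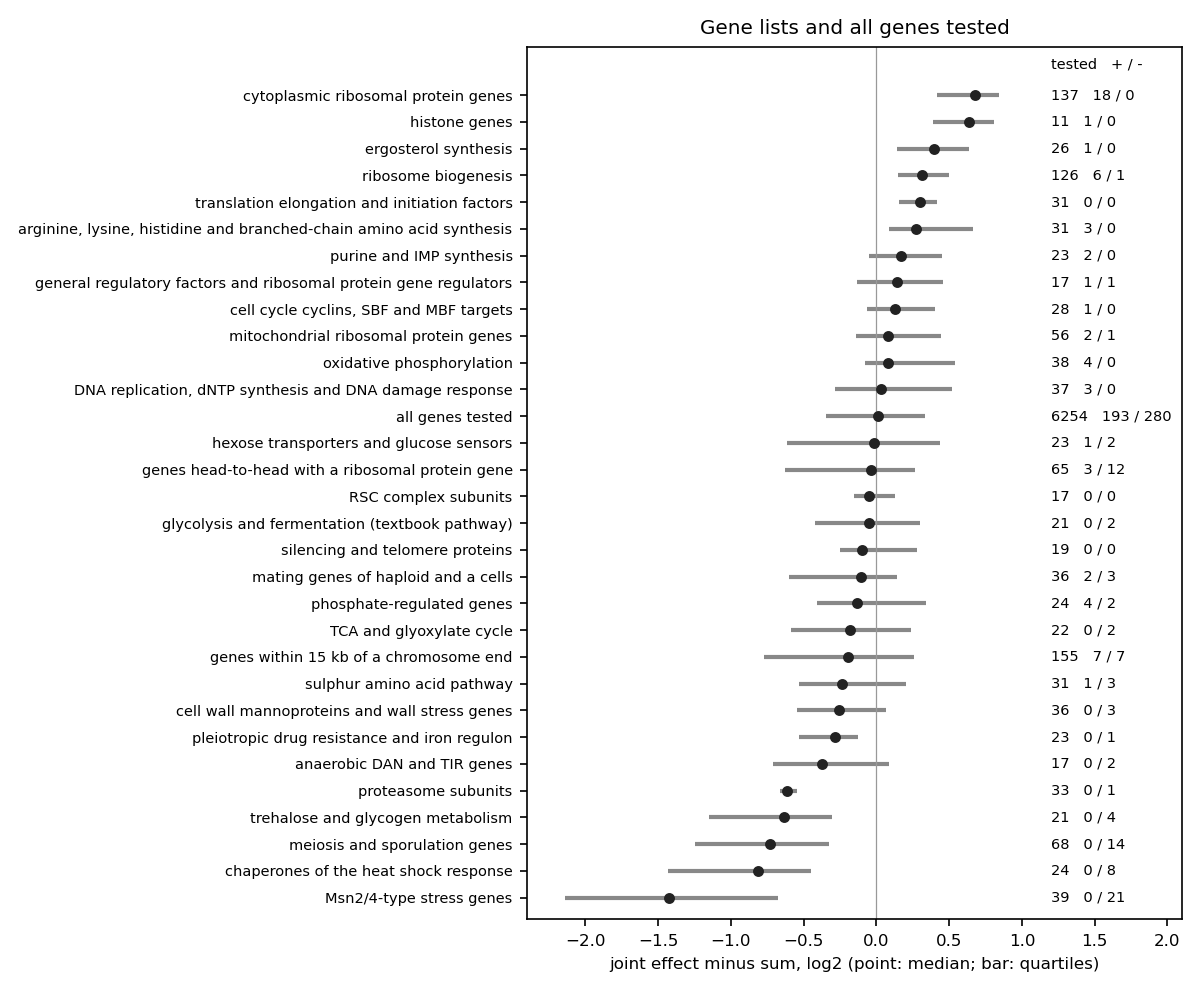
Joint effect minus the sum (log2) in 30 gene lists and in all genes tested, under TMM scaling: point, median; bar, quartiles; numbers, genes tested and genes called above (+) and below (-) the sum. Stress genes (median -1.43) and chaperones (-0.81) lie lowest and cytoplasmic ribosomal protein genes (0.68) highest, and with spike-in scaling the median of all genes is 0.54 instead of 0.01, so that lists near 0 change side.

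Short motifs in the upstream stretches were counted as a description in 5779 of the genes tested. The stress element AGGGG was present in 19.4% of all stretches, in 9.68% of genes above the sum, in 36.9% of genes below it and in 74.4% of the stress list. The Rap1 core was present in 1.04% of all stretches, 1.08% above and 3.14% below the sum, in 6.57% of ribosomal protein genes and in 10.8% of the genes that face them. CGCGC was present in 11.3% of all, 13.4% above and 14.1% below the sum. The Rap1 core and the stress element can share letters, a match is not a bound site, and the motifs were chosen with the gene lists known. In the stretches shown above, the match to CGCGC lies 237 bases before the start codon of ADK1 and 134 before that of ILM1, and the Rap1 core lies 240 before that of RPL8A and 167 before that of NAT3.

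Library scaling decided how many genes were called. With S. pombe spike-in scaling, as the study used, the median over all genes was 0.54, and 39 genes (0.624%) were called above and 11 (0.176%) below the sum, all of them also called with TMM. These counts changed when 1 library was left out. Without RAP1_STH1_DMSO replicate 1, spike-in scaling gave 1367 genes above and 47 below the sum and a median of 0.87. This setting was added after the data were seen, and no other library was left out under spike-in scaling. S. cerevisiae counts per S. pombe count ranged from 8.28 to 18.1 among the 3 DMSO libraries of the strain with both degrons. The range was 11.8 to 22.2 among the DMSO libraries of STH1-AID. The share of calls that lay above the sum was 40.8% with TMM, 53.1% with RLE scaling (254 above and 224 below), 53.3% with DESeq2 (252 and 221), 52.7% without the WT libraries (263 and 236) and 78.0% with spike-in scaling. Of the 24 genes with the most extreme values, 21 were called with spike-in scaling. Their direction in the fits with a library left out was fixed by the way they were chosen. In bulk RNA, fewer cells of a kind and less RNA per cell cannot be told apart.

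**Figure D5:**
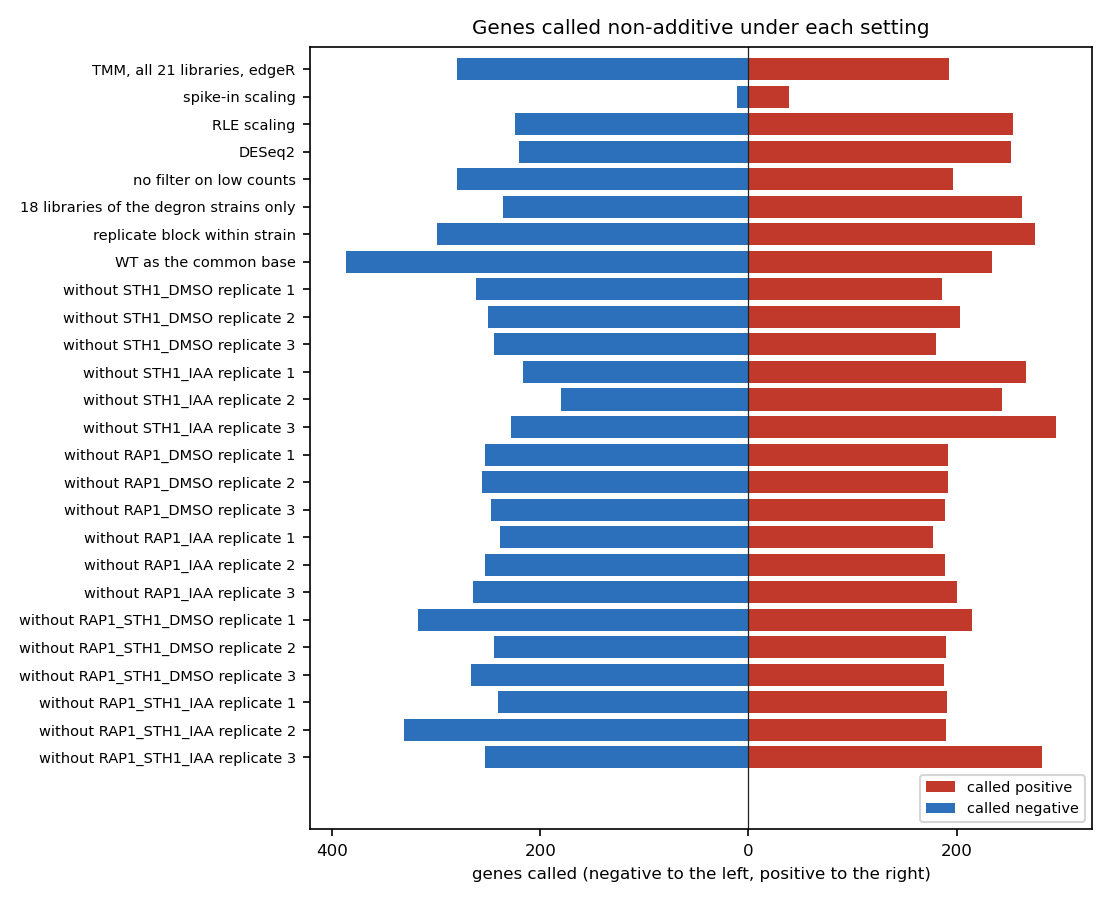
Number of genes called above the sum (red, to the right) and below it (blue, to the left) with TMM scaling of all 21 libraries and under each other setting, including the 18 fits that leave out 1 library. Spike-in scaling gives 39 and 11 genes, and the fits with 1 library left out give 177 to 296 above and 180 to 331 below.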

How the data were processed

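Polyadenylated RNA was sequenced from 21 libraries of 4 S. cerevisiae strains. The authors trimmed reads with cutadapt 1.9.1, mapped them with BWA 0.5.9-r16 to the S. cerevisiae R64-1-1 and S. pombe genomes separately, kept uniquely mapped pairs, and counted fragments per protein-coding gene by strand with featureCounts of Subread 1.5.1. The deposited values are raw counts, 1 table per species. Fragments across exon junctions were not counted, and a fragment over overlapping genes counted for each.

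Counts were fitted with edgeR 4.0.16 (glmQLFit and glmQLFTest, R 4.3.3) over 6254 genes that passed filterByExpr, with 1 coefficient for each of 7 groups, TMM scaling and no replicate block. Adjusted p-values are Benjamini-Hochberg values over all genes tested, and calls needed an adjusted p under 0.05 and a log2 value beyond 1. The depth per library was 20901972 to 29090954 counts, with no molecular identifiers, so limits from counts cover counting error only. Alternatives were spike-in size factors, RLE scaling, DESeq2 1.42.0, no filter, 18 libraries, a replicate block, WT as the common base, and each library left out. The Rap1 core motif is shown by the bases it matched. The procedure was tested on simulated data. Named genes were the 12 highest and 12 lowest among those called without each library in turn, with more than 3 counts in a library of each degron group and no same-strand overlap. To these were added up to 4 called members of each list and direction, called ribosomal protein genes, STH1 and RAP1. Other named genes were chosen after their values were seen. The members and the 30 gene lists were chosen with earlier results of these data known. Gene positions and sequences are from RefSeq R64.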

Additional observations from a re-analysis of the deposited data

Results flagged for a closer look

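In 21 of the 24 genes with the most extreme values, the joint effect in STH1-AID RAP1-AID differed from the STH1 effect in STH1-AID by the test of that difference (edgeR quasi-likelihood test, largest adjusted p = 0.0183). The same test gave an adjusted p under 0.05 in 40.8% of all genes. These genes were chosen by a value that already subtracts the STH1 effect, so the tests are not independent of the choice.

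The joint effect minus the STH1 effect was above 0 in genes that fell in STH1-AID: HO 2.21, COS1 2.59, RKI1 1.82, ADK1 1.86, CAT5 2.31, ILM1 2.09 and YMR099C 1.9 on the log2 scale. In HAP3 (2.85), SWM1 (2.92), YHB1 (2.98) and GIM3 (2.1) the effects had opposite signs in the strains, lower with IAA in STH1-AID and higher with both degrons. It was below 0 in genes that were higher with IAA in STH1-AID: SGA1 -1.92, XBP1 -3.35, HSP12 -3.57, LDS2 -1.85, CYC7 -2.44, IRC15 -3.6, PES4 -2.72, DDR2 -3.18, MNC1 -2.73 and NQM1 -3.77. The extent of Sth1 depletion in each strain was not measured here, and its part in these differences was not tested.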

How the results depend on the processing

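With S. pombe spike-in scaling 39 genes lay above the sum and 11 below, and with the adjusted p alone as the criterion there were 1189 and 805. Under spike-in scaling 1 ribosomal protein gene was called above the sum and 4 stress genes below it, and YIL100C-A (-3.42), LDS2 (-2.65) and PES4 (-2.38) missed the threshold. Spike-in scaling without RAP1_STH1_DMSO replicate 1, a setting chosen after seeing the data because that library had the highest number of S. cerevisiae counts per S. pombe count in its group, gave 1367 genes above the sum and 47 below, with a median over all genes of 0.87. Leaving out each degron library in turn gave 177 to 296 genes above the sum and 180 to 331 below. In these fits 171 to 190 of the 193 genes and 180 to 264 of the 280 genes were called again. The median over all genes was 0.11 to 0.12 without STH1_IAA replicate 1, 2 or 3 or RAP1_STH1_IAA replicate 3, and at most 0.03 in the other fits. With the TMM factors of the full data kept, a setting also chosen after seeing the data, the counts were 170 to 215 and 231 to 331, and the median was at most 0.03. RLE scaling, DESeq2, the fit without WT and the fit without a filter on low counts (197 and 280) gave counts within 1.5 times of those with TMM. With WT as the common base, 234 and 387 genes were called, of which 143 and 200 were shared, and ADE17 (0.07) and LDS2 (-1.26) missed the threshold. DMSO libraries of the strains differ, and this base carries those differences into the value. The replicate block within strain gave 275 genes above and 299 below the sum, of which 192 and 237 were shared. As for the pairing, deviations of libraries with the same number in the DMSO and IAA groups of a strain correlated at 0.093 to 0.788, over 0.1 in 8 of 9 pairs, and those with other numbers at -0.578 to 0.089. Every library thus correlated best with its own number, a hint of pairing from the data. Since 1 pair, in RAP1-AID, missed the limit of 0.1 set for every pair, the fit without the block was kept. Genes near 3 counts per library (0.0868 to 0.193 CPM), such as PES4 and YIL100C-A, are limited by depth.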

Other observations

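The members of the phosphate list respond to phosphate starvation through Pho4. Of 24 genes, 4 were above the sum and 2 below, against 3.09% and 4.48% of all genes. Levels in this list differed between strains before any depletion. SPL2, an inhibitor of low-affinity phosphate uptake, stood at 9.46, 6.85 and 10.4 CPM with DMSO in STH1-AID, at 0.854, 0.581 and 1.12 CPM in RAP1-AID and at 0.782, 0.959 and 0.69 CPM in the strain with both degrons, against 58.8, 51.1 and 53.2 CPM in WT. SPL2 exceeded the sum by 1.68, PHM6 by 3.62, PHO12 by 1.77 and PHO84, the high-affinity transporter, by 1.54, whereas PHM8 (-2.38) and PHO89 (-2.31), a sodium-phosphate transporter, were below it. PHO12 and PHO84 were called in only 10 and 6 of the 18 fits with a library left out. With WT as the common base for all IAA groups, SPL2, PHM6, PHO12 and PHO84 were at 4.22, 4.52, 5.07 and 2.32. On that base PHM8 was at -0.82 and PHO89 at 0.14. PHM6 had at most 1 count in the IAA libraries of STH1-AID. MET17 differed from the sum by -2.29, from near 0 CPM in STH1-AID.

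Of 155 genes within 15 kb of a chromosome end, where Rap1 binds telomere repeats, 7 were above the sum and 7 below, close to the 3.09% and 4.48% of all genes. PAU10 (4.69) and COS5 (1.59) were above it, and VEL1 (-2.49) and THI12 (-1.87) below. PAU10 had 0 counts in every IAA library of STH1-AID and at most 2 in its DMSO libraries, so its fitted value depends on the prior count. PAU10 was called in 13 and THI12 in 15 of the 18 fits with a library left out. These families have near-identical copies.

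HAP3, above the sum (2.09), lies next to PIM1, a mitochondrial protease that was below it (-1.10), on chromosome II. DIN7 (-1.90) and AKR1 (-1.51), neighbours on chromosome IV, were both below it. These pairs were noticed after the values were seen.

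DTR1, a spore wall transporter named after its values were seen, was not called, though its level was far higher with both proteins depleted. It stood at 0.374, 0.839 and 0.472 CPM with DMSO and at 14.3, 17.8 and 8.76 CPM with IAA in the strain with both degrons, and at no more than 2.32 CPM in any other library. The joint effect of 4.56 exceeded the sum of 1.9 and 1.14 by 1.52 (SE 0.62, adjusted p = 0.0704, edgeR).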
